A study of Mus musculus with 6 samples.

Results

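Fatty acid metabolism was represented by 42 genes, chosen by name, for making, desaturating and elongating fatty acids, for joining them to coenzyme A, and for burning them in mitochondria and peroxisomes. The deposited table listed 17491 genes, all 42 of these among them, and each of the 42 also passed the low-count filter that left 13366 genes for testing. The table came from RNA-seq (SMARTER mRNA-seq kit) of osteoblasts grown out of wildtype mouse bone marrow mesenchymal stem cells, with 3 libraries from verapamil-treated cultures and 3 from control cultures. Verapamil and control cultures alike received the osteogenic mix of ascorbic acid, β-glycerophosphate and dexamethasone, a glucocorticoid, until day 7, so all 6 libraries share that exposure. Verapamil blocks L-type voltage-gated calcium channels. Its dose and timing, the mouse strain, sex and age, and whether replicates were separate cultures are not given in the labels, so the p-values rest on a spread among libraries that may be technical only.

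Cells build fatty acids in the cytosol from acetyl-CoA, which is carboxylated to malonyl-CoA and chained into palmitate. Palmitate is then lengthened by elongases and given double bonds by desaturases in the endoplasmic reticulum. For oxidation, an acyl-CoA synthetase activates the fatty acid and carnitine carries it into the mitochondrion, where each turn of β-oxidation removes an acetyl-CoA. Very long and branched chains are first shortened in peroxisomes. Osteoblasts use fatty acids as a fuel beside glucose, and macrophages and adipocytes, which marrow cultures can also contain, express many of the same enzymes.

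Levels are in CPM, estimated counts scaled to library size with TMM factors. Values after ± are SD over n = 3 libraries a group, or SE where so marked. Differences are log2 fold changes, verapamil over control, and a gene was said to have risen or fallen at an adjusted p under 0.05 in edgeR's quasi-likelihood test over all 13366 genes. Libraries held 18.2 to 21.7 M estimated reads. Osteoblast RNA was plentiful, with Col1a1, the main chain of bone collagen, at 5387 ± 539.6 CPM in verapamil and 17067 ± 4439 CPM in control libraries (SD, n = 3 each). Of 16 osteoblast markers 13 fell and 3 did not pass, and their sum was 30904 to 31448 CPM in verapamil against 51478 to 65485 CPM in control libraries. Spp1, the osteopontin gene, was at 11651 ± 1285 CPM in verapamil and 9785 ± 1474 CPM in control libraries. Of 20 macrophage and monocyte markers 16 rose and 4 did not pass, none was at 0, and their summed level was 19032 to 21357 CPM in verapamil against 10796 to 13360 CPM in control libraries. Lyz2, the macrophage lysozyme gene, had 11197 ± 883 CPM in verapamil and 5536 ± 1039 CPM in control libraries. The mannose receptor gene Mrc1, at 1274 ± 12.6 CPM in verapamil and 1276 ± 70.8 CPM in control libraries, did not pass. Of 19 hypoxia response genes, 15 fell and 4 did not pass, and their sum was 1859 to 2147 CPM in verapamil against 2841 to 7171 CPM in control libraries, with control replicate 2 highest. In bulk RNA, fewer cells of a type and less RNA per cell cannot be told apart, and the part of these lists in the results below was not tested.

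Of the 42 fatty acid genes, 16 rose with verapamil and 0 fell. Over all genes tested, 31.7% were called, 15.4% higher and 16.3% lower. Scaling by library totals alone made 22 of the 42 rise, and 21.2% of all genes tested, beside 15.4% with TMM. Of all called genes, 63.7% were then higher, beside 48.5% with TMM. A member lower at an unadjusted p under 0.05 was seen once, in Fads3, which DESeq2 called lower and limma-voom did not. Of all 42, 38 had a positive log2 fold change, with a median of 0.18 beside 0.01 over all genes tested. Verapamil values all lay above control values for 27 members and all below for 1, against 25.1% and 24.5% of all genes tested (49.6% in either direction). The changes were small. Only 3 members differed by 1.5-fold or more, and these were desaturases.

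**Figure D1:**
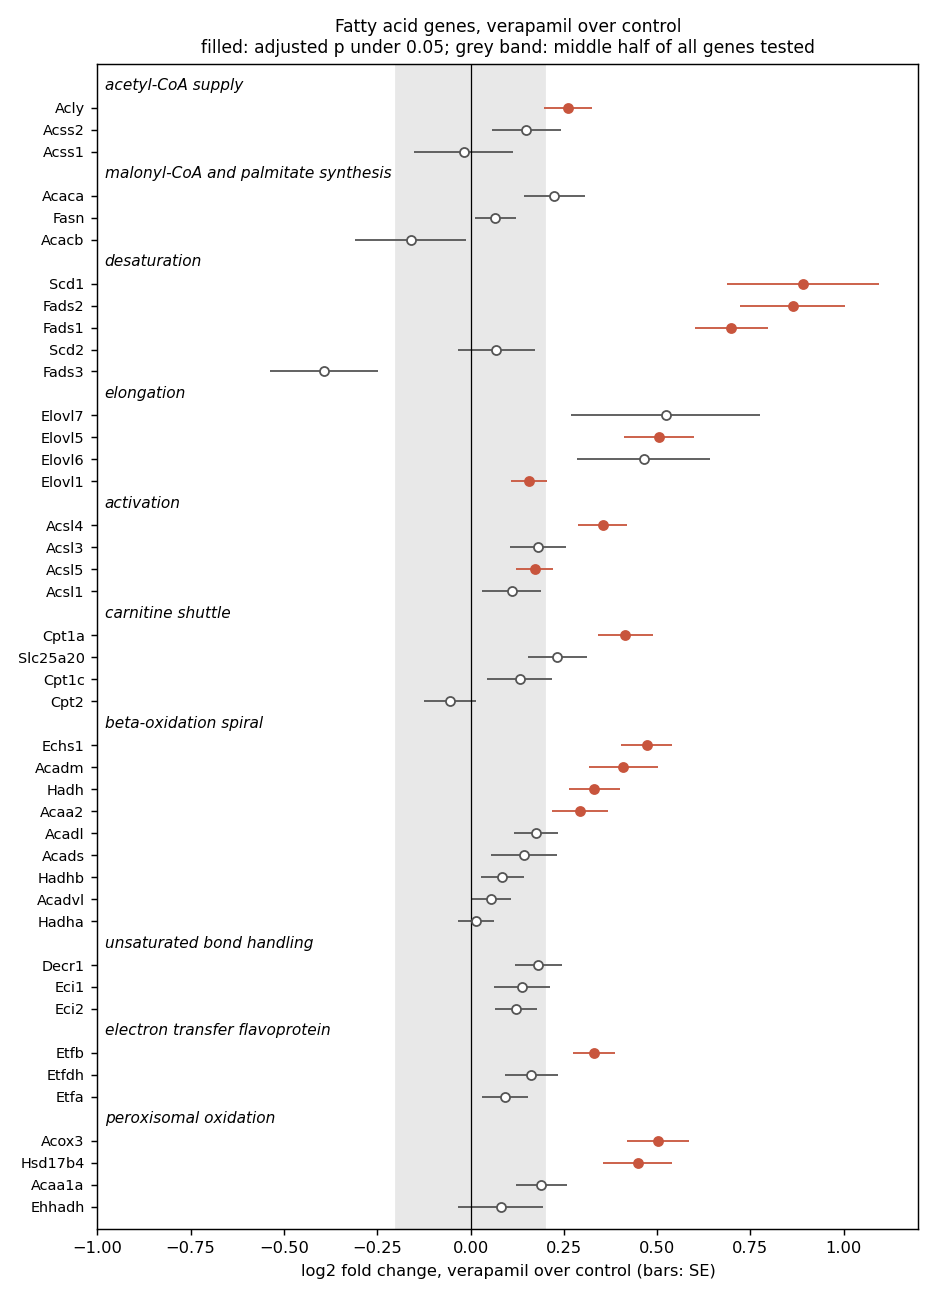
Log2 fold change of verapamil over control (x axis, bars are SE) for the 42 fatty acid genes, ordered by metabolic step, with genes past the test filled and the interquartile range of all genes tested shaded. The desaturases Scd1, Fads2 and Fads1 stand farthest to the right, 18 members lie above the upper quartile of all genes (0.20), and Fads3 is the 1 member below the lower quartile (-0.20).

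Genes that rose were found in synthesis and in oxidation. Of 15 synthesis genes 6 rose, with a median log2 fold change of 0.22, and of 19 mitochondrial oxidation genes 6 rose, with a median of 0.16. The 4 peroxisomal genes had a median of 0.32, with 2 that rose, and the 4 acyl-CoA synthetases a median of 0.18, with 2 that rose. Summed over genes, synthesis stood at 2489 to 2571 CPM in verapamil against 2011 to 2157 CPM in control libraries, and mitochondrial oxidation at 1163 to 1170.2 CPM against 983 to 1074 CPM. Each of these sums was higher in every verapamil library than in every control library. The difference between the roles was not tested. Within each role some enzymes rose while their pathway partners did not pass, as described step by step below.

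**Figure D2:**
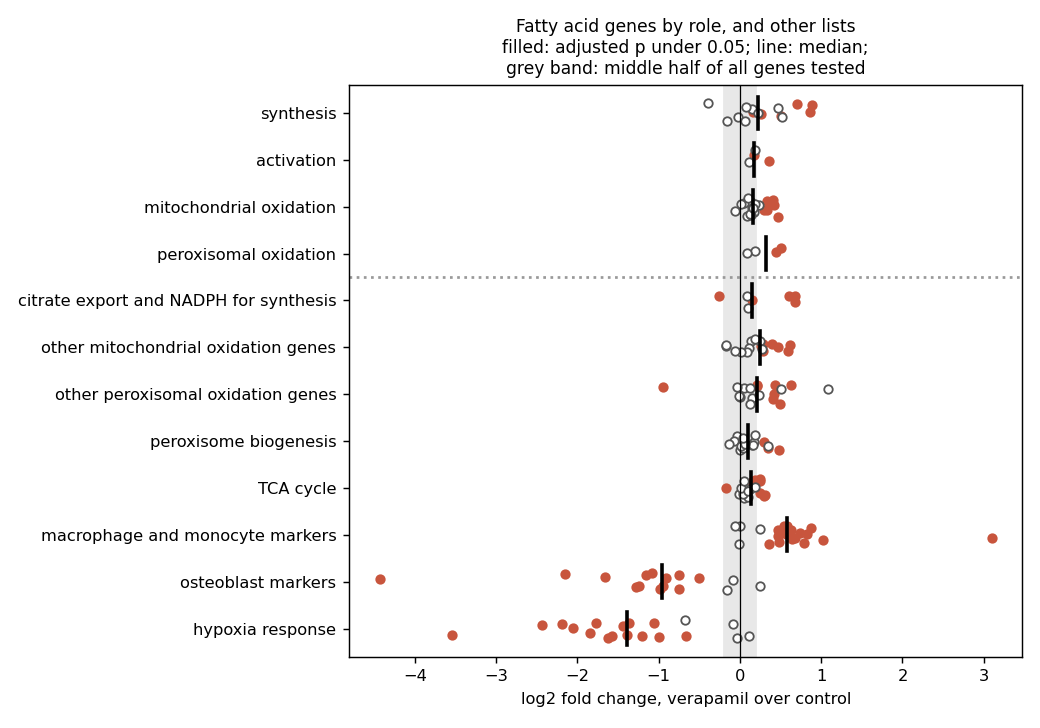
Log2 fold change of verapamil over control (x axis) for each gene of 4 fatty acid roles, above the dotted line, and of 8 other lists below it. Filled points passed the test, black lines are medians and the shaded band is the interquartile range of all genes tested. The 4 fatty acid medians lie between 0.16 and 0.32, beside 0.57 for macrophage markers, -0.96 for osteoblast markers and -1.39 for the hypoxia response.

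Promoter sequences are shown for 2 genes that rose together in polyunsaturated fatty acid synthesis, Elovl5 and Fads2, for Etfb, a riser of the oxidation branch, and for the stretch between Hadha and Hadhb, neighbours read in opposite directions that did not pass. Each is the 250 bases before the RefSeq start (GRCm38.p6), and capitals mark matches, on either strand, to a CCAAT box (CCAAT, or ATTGG on the other strand), an E-box (CACGTG) or a GC box (GGGCGG). The windows are chr9:77917115-77917364 (plus strand) for Elovl5, chr19:10101504-10101753 (minus strand) for Fads2, chr7:43443822-43444071 (plus strand) for Etfb and chr5:30155003-30155252 (plus strand) for Hadhb.
Elovl5: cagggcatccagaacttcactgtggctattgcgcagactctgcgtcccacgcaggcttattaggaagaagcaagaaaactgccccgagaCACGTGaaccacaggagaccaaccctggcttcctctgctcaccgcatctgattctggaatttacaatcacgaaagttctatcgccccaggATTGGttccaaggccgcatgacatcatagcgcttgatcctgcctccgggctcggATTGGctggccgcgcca
Fads2: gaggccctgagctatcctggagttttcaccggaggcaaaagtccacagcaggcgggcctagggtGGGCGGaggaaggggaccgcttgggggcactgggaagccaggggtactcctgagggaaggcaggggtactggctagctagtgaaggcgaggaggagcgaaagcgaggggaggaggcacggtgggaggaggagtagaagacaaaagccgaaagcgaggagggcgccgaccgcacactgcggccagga
Etfb: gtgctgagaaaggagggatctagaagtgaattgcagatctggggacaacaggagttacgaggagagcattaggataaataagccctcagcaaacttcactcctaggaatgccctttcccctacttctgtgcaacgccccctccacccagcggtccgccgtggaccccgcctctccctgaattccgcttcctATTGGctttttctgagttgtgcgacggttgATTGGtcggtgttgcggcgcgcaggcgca
Hadhb: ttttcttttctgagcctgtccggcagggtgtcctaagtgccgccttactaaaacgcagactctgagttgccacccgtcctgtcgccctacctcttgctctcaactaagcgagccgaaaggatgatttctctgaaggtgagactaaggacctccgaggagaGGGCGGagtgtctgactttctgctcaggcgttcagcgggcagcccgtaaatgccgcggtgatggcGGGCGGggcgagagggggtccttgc

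In these 4 windows, Elovl5 held 2 CCAAT boxes and the E-box, Etfb 2 CCAAT boxes, Hadhb 2 GC boxes and Fads2 1 GC box, with no overlap between matches. RefSeq windows were matched for 36 of the 42 members and for 10604 of the genes tested. A CCAAT box was found in 18 of the 36 members and 41.0% of the tested genes, and a GC box in 25 of 36 and 62.9%. The E-box was found in Elovl5 alone among the 36 and in 9.81% of the tested genes. The SREBP element, searched as TCACNCCAC, matched in Acsl1 and Ehhadh and in 1.22% of the tested genes. A PPAR direct repeat, searched as AGGTCA repeated after any 1 base, matched in 0 of the 36 and in 0.0377% of the tested genes. Scd1, Scd2, Fads1, Decr1, Acaa2 and Hsd17b4 had no window. A match describes letters in a window and is not a bound site.

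The entry steps of synthesis moved little. Acly, the ATP citrate lyase that makes cytosolic acetyl-CoA from citrate, had 214, 208 and 207 CPM in verapamil replicates 1, 2 and 3 and 179, 161 and 185 CPM in control replicates 1, 2 and 3. All verapamil values lay above all control values, and Acly rose by 0.26 ± 0.06 SE (adjusted p = 0.0175), a call lost without any 1 verapamil library (adjusted p = 0.0607 to 0.0849). The acetate-activating enzymes did not pass, with Acss2 of the cytosol at 0.15 ± 0.09 SE and Acss1 of mitochondria at -0.02 ± 0.13 SE, which turned positive (0.061) with library totals alone.

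Acetyl-CoA carboxylases and fatty acid synthase did not pass by edgeR, DESeq2 or limma-voom, and 1 of the 3 was under 0.05 before adjustment. That gene was Acaca, the cytosolic carboxylase, with 96.0 ± 6.33 CPM in verapamil and 82.2 ± 7.79 CPM in control libraries (0.22 ± 0.08 SE, adjusted p = 0.0668). Its groups did not overlap, and it passed without control replicate 3 (adjusted p = 0.0252) or with library totals alone (adjusted p = 0.0464). Fasn, which assembles palmitate, had 183, 171 and 169.6 CPM in verapamil libraries and 171, 166 and 163 CPM in control libraries. These groups overlapped and differed by 0.07 ± 0.06 SE (adjusted p = 0.395). Acacb, whose malonyl-CoA restrains carnitine palmitoyltransferase 1 at the mitochondrial surface, was low, at 2.97 ± 0.257 and 3.32 ± 0.235 CPM in verapamil and control libraries (-0.16 ± 0.15 SE).

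Desaturases showed the widest range. All 5 lie on chromosome 19 (GRCm38). Fads3, Fads2 and Fads1 form a cluster at chr19:10040855-10060113, chr19:10062765-10101503 and chr19:10182877-10196874. Scd2 and Scd1 are 87585 bases apart at chr19:44293676-44306864 and chr19:44394450-44407709. Fads1, the Δ5 desaturase, had 210.1, 212 and 202 CPM in verapamil libraries and 131, 108 and 145 CPM in control libraries. Fads2, the Δ6 desaturase that opens the polyunsaturated pathway, had 74.4, 71.8 and 69.3 CPM in verapamil against 41.3, 30.2 and 46.7 CPM in control libraries. Neither gene's groups overlapped, and control replicate 2 was lowest for both. Fads1 rose by 0.70 ± 0.10 SE (adjusted p = 0.00175) and Fads2 by 0.86 ± 0.14 SE (adjusted p = 0.00436), calls that also passed without each library in turn. Fads3, a desaturase known to act on sphingoid bases, had 114, 102 and 115 CPM in verapamil libraries and 138, 179.8 and 118 CPM in control libraries. All of its verapamil values lay below its control values, but its difference of -0.39 ± 0.15 SE did not pass (adjusted p = 0.0777). DESeq2 called Fads3 lower (adjusted p = 0.0232), as did edgeR without control replicate 3 (adjusted p = 0.00738).

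Stearoyl-CoA desaturases place the first double bond, turning stearate into oleate. Scd1 had 394, 471 and 399.9 CPM in verapamil replicates 1, 2 and 3 against 266, 156 and 259 CPM in control replicates 1, 2 and 3. The groups did not overlap, with control replicate 2 far below the other controls. Scd1 rose by 0.89 ± 0.20 SE (adjusted p = 0.0176), and without verapamil replicate 2 it did not pass (adjusted p = 0.0614). Scd2 had 897, 901 and 921 CPM in verapamil libraries and 897, 963 and 731 CPM in control libraries, a range that held the verapamil values (0.07 ± 0.10 SE, adjusted p = 0.643). Control replicate 2 was thus lowest for Scd1 and highest for Scd2. Per kilobase of transcript, Scd1 made up 33.1%, 37.1% and 32.9% of the pair in verapamil libraries and 25.1%, 15.5% and 28.6% in control libraries. These 2 are close paralogs, and how the authors' counting shared reads between them is not given.

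**Figure D3:**
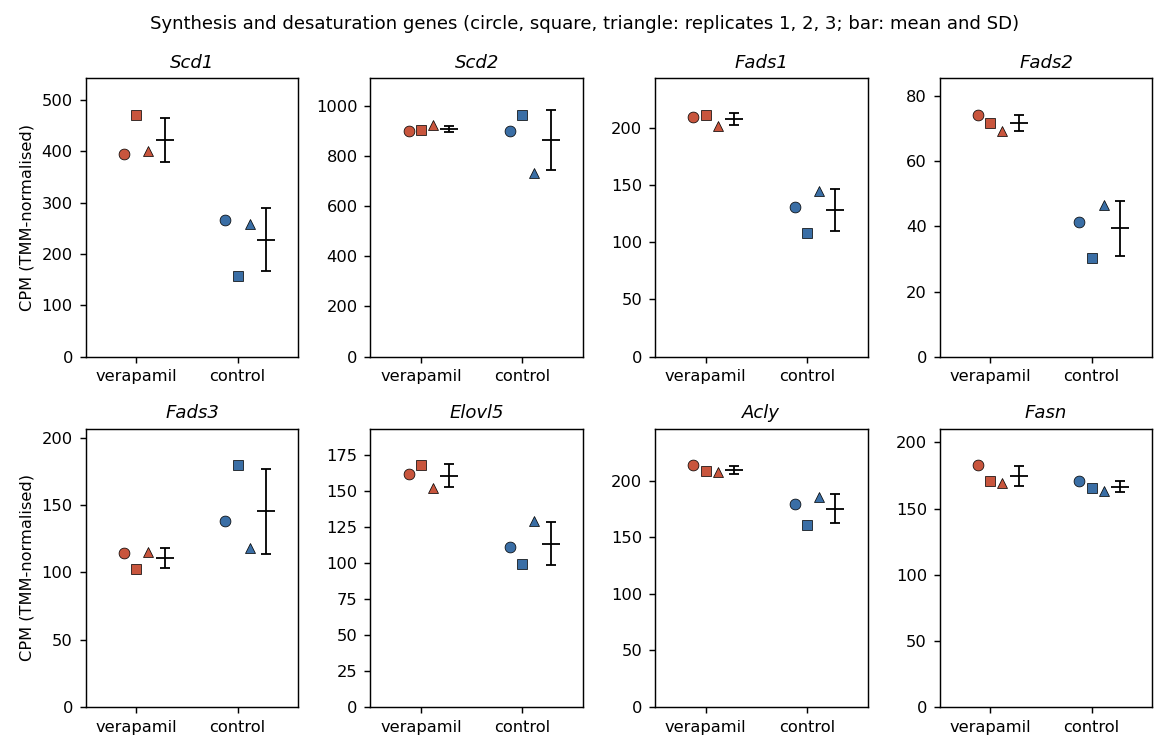
TMM-normalised CPM (y axes, from 0) of 8 synthesis and desaturation genes in 3 verapamil libraries (red, left) and 3 control libraries (blue, right), with circles, squares and triangles for replicates 1, 2 and 3 and the mean and SD beside them. Scd1, Fads1, Fads2 and Elovl5 are separated between the groups, while Scd2 and Fasn overlap, and control replicate 2 is lowest for Scd1 (156 CPM), Fads1 (108 CPM) and Fads2 (30.2 CPM).

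All 4 elongases had positive log2 fold changes and groups that did not overlap, and 2 rose. Elovl5, which lengthens the polyunsaturated products of Fads2, had 162, 168 and 152 CPM in verapamil libraries and 111, 99.6 and 129 CPM in control libraries. It rose by 0.50 ± 0.09 SE (adjusted p = 0.00524), also without each library in turn. Elovl1, an elongase of very long saturated chains, had 100.1, 96.1 and 96.1 CPM in verapamil and 87.1, 87.4 and 87.6 CPM in control libraries. Its rise of 0.16 ± 0.05 SE (adjusted p = 0.0394) held in only 1 of the 6 fits that left out a library, the one without control replicate 2 (adjusted p = 0.0595 to 0.170 in the other 5). It was also lost by DESeq2 (adjusted p = 0.0861) and with no low-count filter (adjusted p = 0.0601). Elovl6, which extends palmitate to stearate, had 28.1 ± 2.27 CPM in verapamil and 20.3 ± 5.23 CPM in control libraries (0.46 ± 0.18 SE, adjusted p = 0.0863), and passed without control replicate 2 or 3 and by DESeq2 (adjusted p = 0.0330, 0.0182 and 0.0358). Elovl7 was near 1 CPM (0.52 ± 0.25 SE, adjusted p = 0.149).

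Acyl-CoA synthetases trap fatty acids as coenzyme A esters for either branch. Acsl4, which prefers arachidonate and other polyunsaturated acids, had 128, 133 and 121 CPM in verapamil libraries and 103, 91.7 and 103 CPM in control libraries. It rose by 0.35 ± 0.07 SE (adjusted p = 0.00569), also without each library in turn. Acsl5, a synthetase of mitochondria and endoplasmic reticulum, had 119.8 ± 3.88 CPM in verapamil and 106 ± 0.919 CPM in control libraries (0.17 ± 0.05 SE, adjusted p = 0.0328). Leaving out control replicate 1 or any 1 verapamil library ended that call (adjusted p = 0.0839 to 0.151), as did DESeq2 (adjusted p = 0.0515). Acsl3, of the endoplasmic reticulum and lipid droplets, was at 0.18 ± 0.08 SE and Acsl1, a main synthetase of fat and heart, at 0.11 ± 0.08 SE, and neither passed.

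In the carnitine shuttle 1 of 4 genes rose. Cpt1a, the carnitine palmitoyltransferase that sets the pace of mitochondrial entry, had 74.0, 75.9 and 66.6 CPM in verapamil libraries and 51.1, 53.5 and 57.8 CPM in control libraries. The groups did not overlap, and the rise of 0.41 ± 0.07 SE (adjusted p = 0.00441) was also called without each library in turn. Slc25a20, the carnitine-acylcarnitine carrier, was at 0.23 ± 0.08 SE (adjusted p = 0.0545), with groups that did not overlap. Cpt1c, a relative best known from neurons with little catalytic activity, had 47.3 ± 1.01 CPM in verapamil and 43.1 ± 5.29 CPM in control libraries and overlapped. Per kilobase its level was like that of Cpt1a, at 16.9 ± 0.361 beside 16.7 ± 1.14 CPM per kilobase in verapamil libraries and 15.4 ± 1.90 beside 12.5 ± 0.796 in control libraries. Cpt2 of the inner membrane was at -0.06 ± 0.07 SE and turned positive (0.023) with library totals alone.

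In the β-oxidation spiral all 9 genes had positive log2 fold changes and 4 rose. Acyl-CoA dehydrogenases catalyse the first step, each for a range of chain lengths. Acadm, for medium chains, had 105, 103 and 106 CPM in verapamil libraries and 77.0, 68.6 and 90.3 CPM in control libraries. It rose by 0.41 ± 0.09 SE (adjusted p = 0.0116), but not when verapamil replicate 1 was left out (adjusted p = 0.0539), nor when control replicate 1 was (adjusted p = 0.0560). The other dehydrogenases did not pass, with Acadl for long chains at 0.17 ± 0.06 SE (adjusted p = 0.0526), Acads for short chains at 0.14 ± 0.09 SE and Acadvl for very long chains at 0.06 ± 0.05 SE.

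The later steps split by enzyme. Echs1, the short-chain enoyl-CoA hydratase, had 58.0, 55.9 and 54.9 CPM in verapamil libraries and 40.0, 37.9 and 43.7 CPM in control libraries (0.47 ± 0.07 SE, adjusted p = 0.00187). Hadh, the hydroxyacyl-CoA dehydrogenase of shorter chains, had 59.8, 62.0 and 63.4 CPM in verapamil libraries against 46.2, 47.7 and 53.3 CPM in control libraries (0.33 ± 0.07 SE, adjusted p = 0.0084). Both calls also passed without each library in turn. Echs1 overlaps its neighbour Paox by 687 bases, and Paox, at 60.1 ± 1.46 and 41.8 ± 4.18 CPM in verapamil and control libraries, rose by 0.52 ± 0.08 SE. The overlap is of gene spans, introns included, and shared exon bases were not measured. Since the strand setting is not given, reads of any shared exon bases cannot be told apart. The spans of 6 other members also overlap a gene of the table. Among them is Acsl3, which shares 9777 bases with Utp14b (7.47 ± 0.935 CPM in verapamil and 6.70 ± 1.68 CPM in control libraries). That stretch is longer than the Acsl3 transcript used here (3950 bases), so it is not all exon of Acsl3. Acaa2, the mitochondrial thiolase, had 47.8 ± 0.617 CPM in verapamil and 39.0 ± 3.60 CPM in control libraries (0.29 ± 0.07 SE, adjusted p = 0.0187), a call lost without control replicate 1 or any 1 verapamil library (adjusted p = 0.0582 to 0.0760).

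Hadha and Hadhb encode the α and β subunits of the membrane-bound trifunctional protein, which takes long chains through the last steps of each turn. They start 272 bases apart on chromosome 5 and share the stretch printed above. Hadha had 123, 121 and 119 CPM in verapamil libraries and 118, 119 and 122 CPM in control libraries, and Hadhb had 99.1, 89.6 and 96.4 CPM against 88.3, 87.7 and 92.7 CPM. Groups of both genes overlapped, at 0.01 ± 0.05 SE and 0.09 ± 0.06 SE (adjusted p = 0.849 and 0.296). Whether the rise of Echs1 or Hadh differed from that of the trifunctional subunits was not tested.

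Auxiliary enzymes for unsaturated chains, the isomerases Eci1 and Eci2 and the dienoyl-CoA reductase Decr1, lay between 0.12 and 0.18, with groups that did not overlap. None of these 3 passed by edgeR, DESeq2 or limma-voom, though 1 had an unadjusted p under 0.05. Electrons from the dehydrogenases leave through the electron transfer flavoprotein. Its β subunit, Etfb, had 66.3, 67.0 and 66.3 CPM in verapamil libraries and 50.3, 55.1 and 53.4 CPM in control libraries. It rose by 0.33 ± 0.06 SE (adjusted p = 0.00387), also without each library in turn. The α subunit Etfa (0.09 ± 0.06 SE) and the oxidoreductase Etfdh, which hands the electrons to ubiquinone (0.16 ± 0.07 SE), did not pass.

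Peroxisomal oxidation had 2 of 4 genes higher. Acox3, an acyl-CoA oxidase of branched chains, had 81.6, 80.2 and 74.7 CPM in verapamil libraries and 53.5, 51.0 and 62.5 CPM in control libraries (0.50 ± 0.08 SE, adjusted p = 0.00325). Hsd17b4, the D-bifunctional protein that carries out the next pair of reactions, had 133, 138 and 134 CPM against 99.8, 84.9 and 112 CPM in verapamil and control libraries (0.45 ± 0.09 SE, adjusted p = 0.0084). Neither gene's groups overlapped, and both calls held without each library in turn. Acaa1a, the peroxisomal thiolase, did not pass at 0.19 ± 0.07 SE (adjusted p = 0.0657), nor did Ehhadh, the L-bifunctional protein, at 0.08 ± 0.11 SE. Ehhadh was the scarcer bifunctional enzyme, at 2.57 ± 0.0857 beside 50.3 ± 1.05 CPM per kilobase for Hsd17b4 in verapamil libraries and 2.43 ± 0.269 beside 36.8 ± 5.05 in control libraries.

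**Figure D4:**
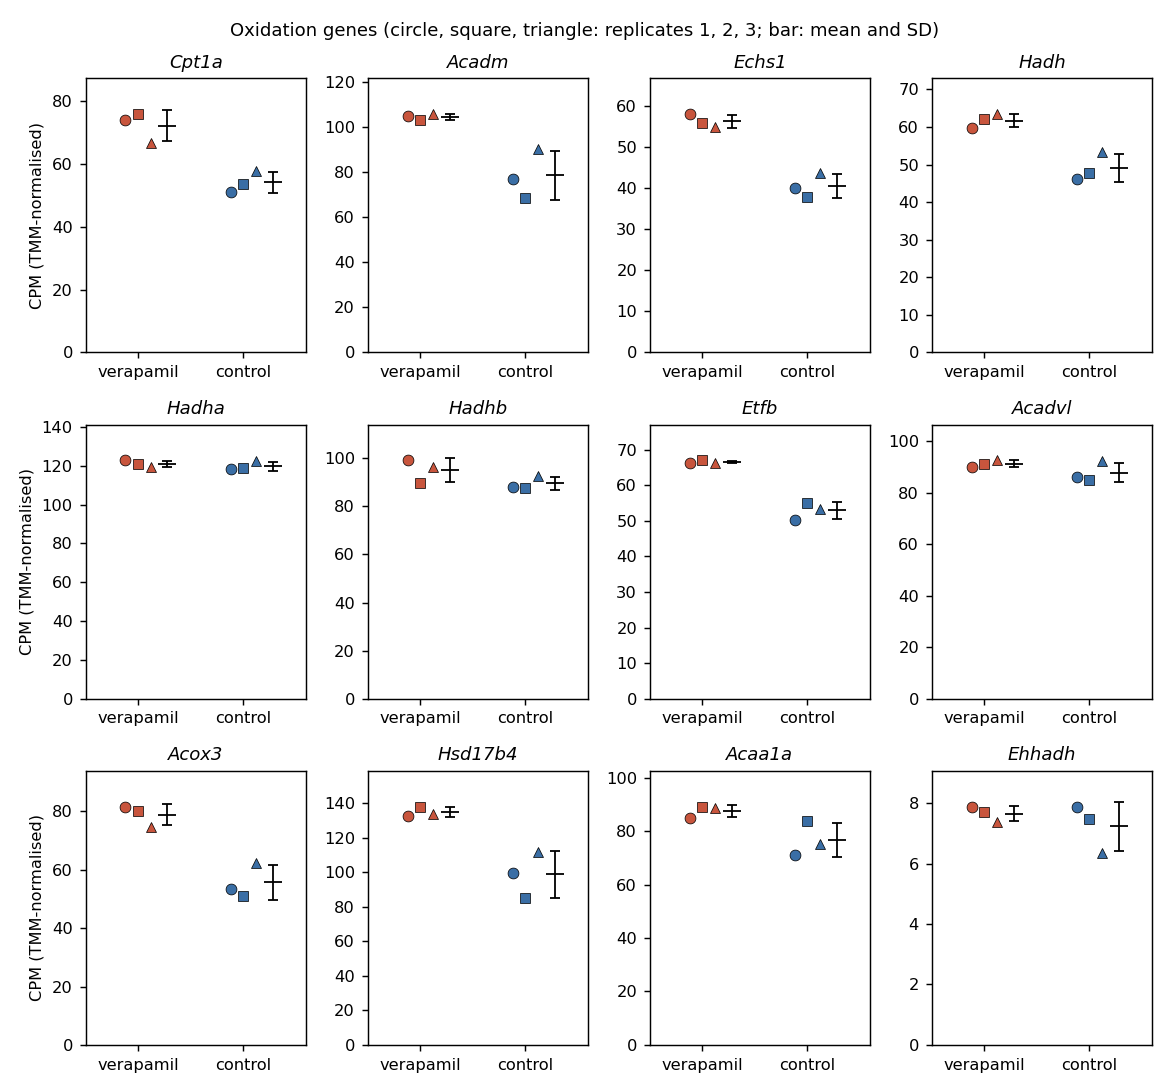
TMM-normalised CPM (y axes, from 0) of 12 oxidation genes in 3 verapamil libraries (red, left) and 3 control libraries (blue, right), with circles, squares and triangles for replicates 1, 2 and 3 and the mean and SD beside them. Cpt1a, Acadm, Echs1, Hadh, Etfb, Acox3, Hsd17b4 and, narrowly, Acaa1a are separated between the groups, while Hadha, Hadhb, Acadvl and Ehhadh overlap.

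Levels per kilobase of transcript ranked the enzymes within each role. Scd2 led synthesis, at 166 ± 2.36 CPM per kilobase in verapamil and 158 ± 21.9 in control libraries. Scd1 followed in verapamil libraries, at 87.3 ± 8.91. In control libraries it was at 47.0 ± 12.7, a spread that held the means of Elovl1 (48.2 ± 0.139), Elovl5 (40.7 ± 5.35), Acly (39.9 ± 2.89) and Fads3 (39.4 ± 8.52). Fads1 stood at 60.1 ± 1.56 in verapamil and 37.0 ± 5.31 in control libraries, above Fads3 (30.0 ± 1.94) in verapamil libraries only. At the low end, Acacb and Elovl7 were under 1 CPM per kilobase in both groups. The mitochondrial genes spanned a narrower range, with Etfb highest (74.5 ± 0.432 in verapamil and 59.3 ± 2.72 in control libraries) and Cpt2 lowest (9.33 ± 0.218 and 9.69 ± 0.523).

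**Figure D5:**
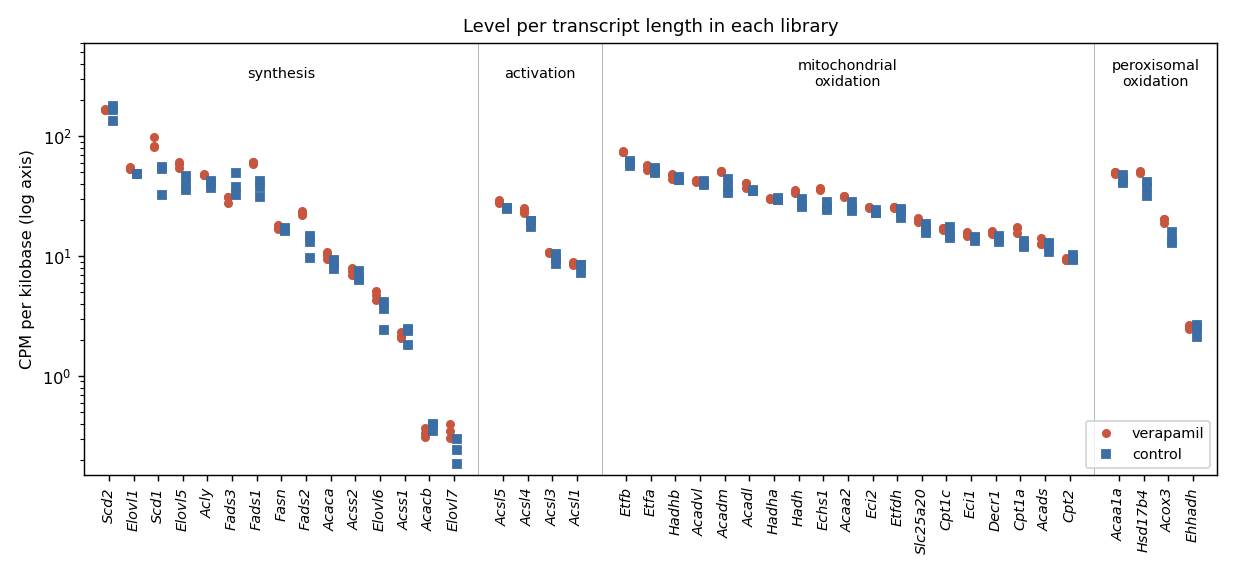
CPM per kilobase of transcript (y axis, log scale) of the 42 fatty acid genes in each verapamil library (red circles) and control library (blue squares), ordered by control level within each role. Synthesis genes run from under 1 to above 100 CPM per kilobase, while the 19 mitochondrial genes lie between those of Cpt2 and Etfb.

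Other genes of the pathway, from lists outside the 42, numbered 96 tested, with a median of 0.14. Of these 28 rose (29.2%, beside 15.4% of all genes tested), 9 fell and 59 did not pass. Counts of the lists below are to be read beside that share and the 16.3% of all genes tested that fell. In the list for citrate export and NADPH, the reductant of synthesis, 4 of 7 rose and 1 fell. G6pdx, the first enzyme of the pentose phosphate pathway, had 176.5 ± 5.95 CPM in verapamil and 109.9 ± 17.4 CPM in control libraries (0.68 ± 0.11 SE, adjusted p = 0.00268). Idh1 (0.67 ± 0.16 SE) and Pgd (0.60 ± 0.06 SE), which also make cytosolic NADPH, rose too, while the malic enzyme Me1 fell by 0.25. Of 13 tested regulators of synthesis 3 rose, 1 fell and 9 did not pass. Srebf1, the transcription factor gene of the lipogenic programme, had 100.4 ± 1.32 CPM in verapamil and 84.7 ± 1.13 CPM in control libraries (0.25 ± 0.05 SE, adjusted p = 0.00671), and the LXRα gene Nr1h3 was 0.34 higher. Insig2, which holds SREBP in the endoplasmic reticulum, fell by 0.31. Its more abundant paralog Insig1 (121.6 beside 67.6 CPM on average) did not pass, at 0.10 ± 0.08 SE (adjusted p = 0.346).

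Of 8 other genes of the elongation cycle and of desaturation, 2 rose, 1 fell and 5 did not pass. The 2 were the dehydratase Hacd4 (0.47 ± 0.07 SE) and the reductase Tecr (0.27 ± 0.05 SE), and the 1 was the dehydratase Hacd1 (-0.67 ± 0.12 SE). Of 11 other synthetases, thioesterases and acyl-CoA binding proteins 2 rose (18.2%, near the 15.4% of all genes tested) and 2 fell. The list's median was -0.24. Dbi, the acyl-CoA binding protein, was at 108.0 ± 1.43 CPM in verapamil and 70.2 ± 8.30 CPM in control libraries (0.62 ± 0.08 SE, adjusted p = 0.00138). Acot13 rose by 0.36 and Acbd3 fell by 0.26. Mitochondrial fatty acid synthesis, which feeds lipoate formation, had 2 of 8 genes higher, Cbr4 (0.40 ± 0.11 SE) and the acyl carrier protein Ndufab1 (0.24 ± 0.06 SE).

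On the oxidation side, 7 of 17 genes listed as other mitochondrial oxidation genes rose and the remaining 10 did not pass, with a median of 0.24. That list is not limited to enzymes of fatty acid oxidation. Among its risers of at least 5 CPM, the largest changes were those of Ucp2, of the uncoupling protein family (0.59 ± 0.09 SE), and the dehydrogenase Acad11 (0.46 ± 0.12 SE). Ivd, an enzyme of leucine breakdown, came next (0.39 ± 0.13 SE). Of 18 other peroxisomal genes 7 rose and 1 fell, with a median of 0.21. Hacl1 (0.63 ± 0.11 SE) and Phyh (0.43 ± 0.08 SE), both of phytanic acid α-oxidation, were among those that rose. Peroxisome biogenesis genes had 3 of 16 higher (18.8%, near the 15.4% of all genes tested) and a median of 0.10. Their most abundant members were Pex19 (0.30 ± 0.09 SE) and Pex13 (0.48 ± 0.09 SE), which rose, and the import receptor Pex5 (-0.03 ± 0.06 SE), which did not pass. Of 18 TCA cycle genes 8 rose and 1 fell, with a median of 0.14, and citrate synthase Cs stood at 182.4 ± 1.21 CPM in verapamil and 164 ± 3.27 CPM in control libraries (0.15 ± 0.05 SE). Of 14 regulators of oxidation 1 rose, 3 fell and 10 did not pass, with a median of 0.08. Pparg rose, at 64.1 ± 1.08 CPM in verapamil and 51.0 ± 6.46 CPM in control libraries (0.33 ± 0.09 SE, adjusted p = 0.0250). Ppard fell by 0.28, the corepressor Nrip1 by 0.32 and the coactivator subunit Med1 by 0.25. Ppara and Ppargc1a, the classical activators in liver and muscle, were under 1 CPM in both groups.

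Of 10 tested markers of adipocytes, which share much of this pathway, 4 rose, 2 fell and 4 did not pass. Their median log2 fold change was 0.50, and the summed level of the list was 949 to 1130 CPM in verapamil against 661 to 856 CPM in control libraries. Of that sum, Cd36 held 190 to 228 CPM in verapamil and 53.3 to 91.5 CPM in control libraries. Without Cd36 the sums of the groups overlapped. Those that rose were the fatty acid translocase Cd36 (1.45 ± 0.19 SE), the triglyceride lipases Pnpla2 (0.73 ± 0.09 SE) and Lipe (0.55 ± 0.16 SE), and the fatty acid binding protein Fabp4, at 135 ± 8.96 CPM in verapamil and 89.6 ± 3.52 CPM in control libraries (0.59 ± 0.06 SE). The lipid droplet coat genes Plin4 and Plin1 fell by 0.48 and 1.46. Lpl, the lipoprotein lipase, was at 393 ± 74.9 CPM in verapamil and 322 ± 75.5 CPM in control libraries and did not pass. Adipoq, the adipocyte hormone gene, was at 85.3 CPM in verapamil and 89.2 CPM in control libraries and did not pass. Cidec, Lep, Retn and Cfd, defining genes of mature fat, were under 1 CPM in both groups, and Plin1 was at 0.464 CPM in verapamil and 1.30 CPM in control libraries. The part of adipocytes in the rise of the 16 fatty acid genes was not tested.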

How the data were processed

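The authors deposited 1 table holding an estimated count of reads for each gene in each library, per the file headers, with no scaling to depth or length. Since 67.7% of the values were not whole, they were rounded before testing. The submitters' processing notes name the build GRCm38 (mm10). Aligner, counter, annotation and strand setting: not given in the sources used here. Columns were matched to libraries by label.

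Genes were kept by filterByExpr (minimum count 10, minimum total 15). Verapamil was set against control with edgeR 4.0.16 in R 4.3.3 (TMM factors, robust quasi-likelihood fit, Benjamini-Hochberg adjustment over all genes tested). SE values were derived from the F statistic. CPM per kilobase used principal transcripts of GENCODE M21. Positions and promoter windows came from RefSeq. No library pair was a duplicate, with chi-square per degree of freedom of 3.57 to 6.21 among verapamil and 12.6 to 49.9 among control libraries. The gene test was also run on simulated counts. Far fewer genes were changed there than were called here, so that run does not measure the error of these calls.

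The 42 members, the lists and the alternatives were chosen with earlier results of these data known, so no list was tested as a set. All 42 members are named, and up to 3 genes from each other list. Those were the largest changes past the test with at least 5 CPM, or, for marker and context lists, the highest levels. The values of 1 gene that this rule takes in are not reported here. Me1, Insig1, Ppara, Ppargc1a, Paox, Utp14b, Adipoq, Fabp4, Pnpla2, Lipe, Plin1, Cidec, Lep, Retn, Cfd and Med1 were named after their values were seen. Alternatives were DESeq2 size factors, upper-quartile factors, library totals alone, no filter, at least 5 CPM in 3 libraries, DESeq2 1.42.0, limma-voom (limma 3.58.1), a replicate block and each library left out.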

Additional observations from a re-analysis of the deposited data

How the results depend on the processing

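Of the 16 fatty acid genes that rose, 14 were called under all 8 settings that kept every library, and 10 were also called in all 6 fits that left a library out. The 10 were Fads1, Fads2, Elovl5, Acsl4, Cpt1a, Hadh, Echs1, Etfb, Acox3 and Hsd17b4. The number that rose was 14 to 22 over those 8 settings, and 11 to 19 with a library left out (18 without control replicate 2). Of all genes tested, 10.2% to 21.2% rose over those 8 settings and 7.49% to 18.2% with a library left out. Fatty acid genes that fell numbered 1 with DESeq2 and 0 to 1 with a library left out, Fads3 in each case. The count over all genes, 4235 with every library, ran from 2236 to 5042 with a library left out, with 2249, 2236 and 2625 when verapamil replicate 1, 2 or 3 was dropped and 2671 when control replicate 1 was. With library totals alone the median of all genes shifted by 0.08, 63.7% of called genes were higher instead of 48.5%, and the medians of synthesis, mitochondrial and peroxisomal genes were 0.30, 0.24 and 0.40. With a library left out those medians ran from 0.17 to 0.28, 0.15 to 0.19 and 0.30 to 0.36. Direction turned for members near 0. With library totals alone Acss1 was at 0.061 and Cpt2 at 0.023. With a library left out Acss1 ran from -0.14 to 0.060 (0.017 without verapamil replicate 1, 0.026 without control replicate 2), Hadha from -0.00094 to 0.028, Scd2 from -0.040 to 0.15 and Ehhadh from -0.012 to 0.15. The design text of the series speaks of 3 pairs, but how libraries were paired is not given. Same-numbered libraries did not deviate together (correlations of 0.01, -0.17 and -0.13), so the main test used no block. With 3 libraries a group these correlations cannot exclude a pairing, and if there was one the fit with a replicate block applies. With the replicate block 2953 genes were called, 14 fatty acid genes rose, 0 fell and the 3 medians were 0.23, 0.17 and 0.32. Elovl1 and Acsl5 were the 2 lost with it (adjusted p = 0.130 and 0.112). At 3 libraries a group, small differences such as those of Acaca, Slc25a20, Acadl and Decr1 lay near the threshold.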

Other observations

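Control replicate 2 was the lowest of the 6 libraries for 23 of the 42 fatty acid genes (54.8%), and for 28.4% of all genes tested. These shares are not like for like, since genes higher with verapamil tend to be lowest in a control library. A positive log2 fold change was found for 38 of the 42 members and for 51.2% of all genes tested. Control replicate 2 was also the library with the highest summed hypoxia response, at 7171 CPM. Among the 16 genes that rose, it was lowest for 11, and the share over all genes that rose was not taken. Without control replicate 2, 18 fatty acid genes rose, and 17% of all genes tested did, beside 15.4% with every library. The medians of synthesis, mitochondrial and peroxisomal genes were then 0.20, 0.15 and 0.30. The part of the hypoxia response in these values was not tested.

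Verapamil libraries were closer to each other than control libraries. The SD of log2 CPM was larger among controls for 34 of the 42 members (81.0%) and for 73.7% of all genes tested. The coefficient of variation had a median of 3.29% among verapamil and 8.69% among control libraries over the 42 genes. Elovl1 and Acsl5 were among the members that went the other way. They had 97.4 ± 2.29 and 119.8 ± 3.88 CPM in verapamil libraries against 87.4 ± 0.252 and 106 ± 0.919 CPM in control libraries (SD, n = 3 each).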
